A study of Mus musculus with 468 samples.

Results

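Lep, the gene of the hormone leptin, was followed across the adipose tissue of outbred mice. It was taken by its symbol from the deposited tables, where it is 1 of 23180 genes (identifier ENSMUSG00000059201). RNA had been sequenced from Diversity Outbred mice, a stock bred from several inbred founder strains, with 1 library per mouse. Per the methods of the study the tissue was the gonadal fat pad, a visceral depot, and all mice had eaten a high-fat, high-sugar diet, labelled as 45 percent fat, from soon after weaning until harvest as adults. The labels place all libraries in a single group. Beyond diet and tissue they carry a mouse number and a library number, and neither sex nor body weight. The questions were therefore how widely Lep varied between mice, and which other transcripts rose and fell with it. Because each mouse gave 1 library, every p-value refers to the spread between mice, in which assay error is included.

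Leptin is a peptide hormone that adipocytes release in proportion to their fat stores. It acts on neurons of the hypothalamus through the receptor Lepr and the kinase Jak2, and lowers food intake while it permits energy use and reproduction. In adipose tissue its transcript is a widely used sign of large, filled adipocytes. In bulk tissue fewer adipocytes and less Lep RNA per adipocyte cannot be told apart.

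Lep lies on chromosome 6 at chr6:29060220-29073877 on the plus strand (GRCm38, a span of 13.658 kb), and no other gene of GENCODE M21 overlaps it. Its counts were whole numbers in all libraries, with no fractions from reads shared with other genes. The 300 bases around its start are shown because they hold a factor site typical of adipocyte genes (RefSeq, GRCm38.p6, chr6:29059971-29060270, plus strand, 5′ to 3′), with capitals marking the matches to the motifs GGGCGG, TTGCGCAA and TATAA together with its overlapping opposite-strand match.
Lep promoter: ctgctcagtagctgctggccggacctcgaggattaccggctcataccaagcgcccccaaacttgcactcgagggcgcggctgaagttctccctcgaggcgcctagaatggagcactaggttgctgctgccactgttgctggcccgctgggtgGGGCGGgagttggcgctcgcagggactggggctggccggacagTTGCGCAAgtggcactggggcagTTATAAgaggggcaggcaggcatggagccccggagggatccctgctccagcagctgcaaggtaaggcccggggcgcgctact
Both strands were searched, and positions count from the first base of the gene in RefSeq as 0. TTGCGCAA, the palindrome bound by C/EBP factors, began at -55 and was found in 0.183% of 32851 promoters of the same length. TATAA, the core of a TATA box, began at -31 on the gene strand, with an overlapping match on the other strand at -32, and was found in 24.9% of promoters. GGGCGG, the GC box recognised by Sp1, began at -98 and was found in 35.7% of promoters. A match describes these letters and is no measure of binding.

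Libraries held between 35.3 M and 137.8 M expected counts with a median of 82.04 M, and factors of the trimmed mean of M values (TMM) lay between 0.578 and 1.36. Levels are given as CPM, counts relative to the library total after scaling with these factors. A split of the libraries was read from the data: Ddx3y, an RNA helicase gene of the Y chromosome, was at 0 in 48.5% of the libraries and above 0 in 51.5%. These 2 clusters are not groups of the labels. Differences in Lep between them are described without a test.

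Lep ranged from 0.716 CPM to 5423 CPM, with a median of 1128 CPM and a mean of 1438 ± 1171 CPM (SD over all libraries). The quartiles lay at 400.3 and 2241 CPM, and the 95th percentile of 3578 CPM was 30.4 times the 5th percentile of 117.9 CPM. Mice were spread over this range, since 17.7% of the mice had less than 300 CPM, 54.3% had at least 1000 CPM and 29.5% had at least 2000 CPM. The transcript accounted for 7.07e-05% to 0.570% of all counts of a library. The median was 1131 CPM without TMM scaling and 1123 CPM with size factors of DESeq2.

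In the libraries without Ddx3y counts Lep was 0.716 CPM at the lowest, 506.3 CPM at the median and 4363 CPM at the highest (mean 829 ± 820.1 CPM, SD). In the libraries with Ddx3y counts the corresponding values were 48.3, 1991 and 5423 CPM (mean 2011 ± 1164 CPM, SD). The medians stood 3.93-fold apart, yet the clusters overlapped over most of the range. Of the libraries with Ddx3y, 87.6% lay above the median of those without, and 5 lay above the highest of them. Of the libraries without Ddx3y, 7.93% lay above the median of those with it, and 9 lay below the lowest of them. Relative spread was wide in both clusters, with a 38.7-fold range from the 5th to the 95th percentile without Ddx3y and a 17.96-fold range with it.

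**Figure D1:**
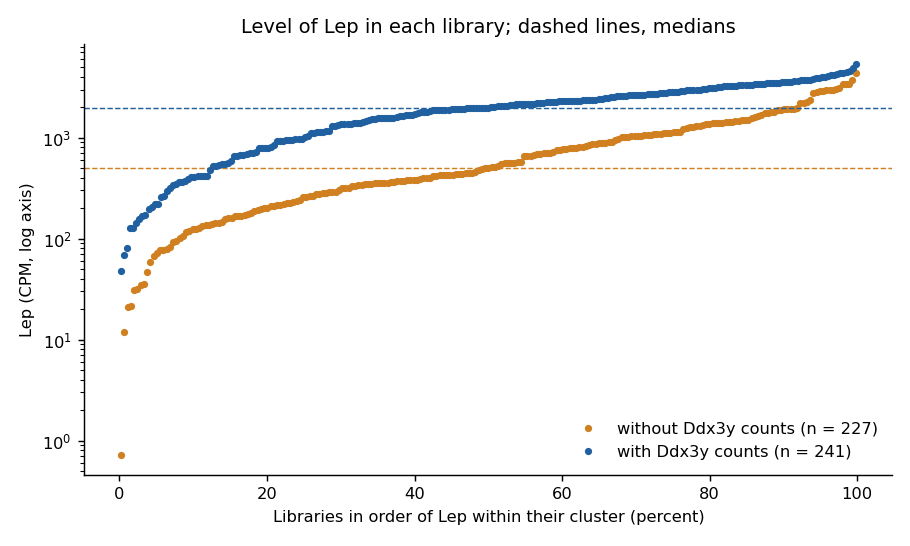
Lep in CPM on a log axis for each library, in order within its cluster on the horizontal axis (percent of the cluster), split by the absence (48.5% of libraries) or presence (51.5%) of Ddx3y counts, with dashed lines at the medians. The clusters overlap broadly around medians of 506.3 and 1991 CPM, and 1 library without Ddx3y lies far below all others at 0.716 CPM.

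The lowest library, from mouse DO349, stood apart. It held 70 counts of Lep in a total of 99.02 M, and the next lowest library (mouse DO330, 11.9 CPM) was 16.7 times higher. Genes of adipocytes were present in DO349, where Adipoq, the gene of the hormone adiponectin, was at 2110 CPM against a median of 2096 CPM over all libraries, and Fabp4, the fatty acid chaperone of adipocytes, was at 6323 CPM against 9671 CPM. Plin1, the main coat protein of the lipid droplet, was at 660 CPM against 1482 CPM, the third lowest value. Irf4, a transcription factor of immune cells and of adipocytes in fasting, had its highest value there at 2447 CPM. DO330 had the highest value of Ucp1, the uncoupling protein of thermogenic fat (4514 CPM), while DO349 had 1.25 CPM. Of the 10 libraries with the least Lep, 8 lay above the median of Ucp1 over all libraries (12.6 CPM) and 2 below it. These 10 include the 9 libraries without Ddx3y that lay below the lowest with it. The median of Ucp1 within either cluster is not given here. The library with the most Lep, from DO192 with Ddx3y, had 5423 CPM of Lep, 803 CPM of Adipoq and 10.7 CPM of Irf4.

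Lep was among the most variable transcripts of its abundance. Its standard deviation of 1.72 on the log2 CPM scale compared with a median of 0.27 over the 9508 genes that averaged 10 CPM or more, of which 98.4% varied less. Among the 99 genes with a mean within 2-fold of that of Lep it ranked 2, after mt-Co2, a cytochrome oxidase gene of mitochondrial DNA. On the linear scale its coefficient of variation of 0.814 ranked 12 among the same 99 genes. The presence of Ddx3y counts accounted for 23.1% of the variance of log2 Lep, Adgre1 for 34.9%, and both together for 40.4%, which left a residual SD of 1.33.

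The orders that the labels give carried little of this variance. Mouse number accounted for 1.77% and library number for 0.0819%. In the edgeR model with the Ddx3y indicator, log2 Lep changed by 0.019 ± 0.039 (SE) per 100 mouse numbers (adjusted p = 0.801) and by 0.026 ± 0.042 per 100 library numbers (adjusted p = 0.860). Over all genes, 13.7% were called for mouse number and 0.294% for library number at an adjusted p under 0.05. In 5 successive blocks of library number the median of Lep lay between 895 and 1390 CPM, and in 5 blocks of mouse number between 872 and 1663 CPM. Among the other library measures, total count gave no call (r = -0.0054, permutation p = 0.907, adjusted over 8 measures 0.907). The TMM factor (r = 0.446, adjusted p = 2e-05) and the percent of counts in genes of mitochondrial DNA (r = -0.636, adjusted p = 2e-05, range 2.65 to 20.6%) did vary with Lep. With Ddx3y and Adgre1 held constant these values were 0.102 (permutation p = 0.0288, adjusted p = 0.0768) and -0.354 (adjusted p = 4e-05), and the part of either measure in the results that follow was not tested.

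Each of 18379 other genes was tested against log2 Lep over all libraries, with a slope that gives the log2 change of the gene per doubling of Lep. At an adjusted p under 0.05, 6970 genes (37.9%) rose with Lep, 7588 (41.3%) fell, and 3821 were not called. Pearson's r with Lep ran from -0.853 to 0.921 with a median of 0.000563. It exceeded 0.7 for 2.30% of genes and was below -0.7 for 1.79%. So many genes moved with Lep that a call alone sets no gene apart, and likeness of pattern was ranked by r among genes that averaged 10 CPM or more. Without TMM scaling 10424 genes were called higher and 4266 lower (70.96% of calls higher instead of 47.9%, with a median slope of 0.039 instead of -0.0045), and genes whose direction depends on this are named as such.

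The transcript most like Lep was Lpgat1, an acyltransferase that acts on lysophosphatidylglycerol. Lpgat1 was 111.7 CPM at the lowest, 765.2 at the median and 2959 at the highest, and its correlation with Lep was r = 0.921 (rho = 0.944, 0.93 without the 2 libraries farthest from the median of Lep). It followed Lep in both clusters, with r = 0.892 without Ddx3y and 0.908 with it, and rose by 0.48 ± 0.01 (SE) per doubling of Lep (edgeR, adjusted p = 8.33e-175). Npr3, the receptor that clears natriuretic peptides, ranged from 50.3 over 1117 to 2414 CPM. Its r was 0.905 (rho = 0.883, 0.91 without the 2 farthest libraries), with 0.906 in libraries without and 0.828 in libraries with Ddx3y, and its slope was 0.53 ± 0.014 (adjusted p = 2.16e-141). Both genes were thus low in the mice with little Lep and high in those with much in either cluster. Their slopes differed between the clusters, by 0.076 ± 0.022 for Lpgat1 (adjusted p = 0.00261) and -0.12 ± 0.028 for Npr3 (adjusted p = 2.07e-04), as the slope with Ddx3y less the slope without it. The libraries of DO349 and DO192, at the ends of the Lep range, had 105.9 and 1931 CPM of Npr3 and 115.6 and 2139 CPM of Lpgat1.

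The other 8 genes of the 10 closest to Lep had various known roles. The steepest was the uncharacterised gene 1700047G03Rik (r = 0.914, slope 1.13 ± 0.029), which rose slightly more than in proportion to Lep. Genes of the cell division and microtubule machinery were Nek6, a mitotic kinase (r = 0.906, slope 0.32), and Jpt2, a microtubule-associated homolog (r = 0.904, slope 0.35). Matrix genes were Sparc, a collagen-binding glycoprotein (r = 0.884, slope 0.31), and Adamts5, a protease that cuts aggrecan (r = 0.882, slope 0.39). The set was completed by Paqr7, a membrane progestin receptor (r = 0.896, slope 0.43), Rtn4rl1, of the Nogo receptor family (r = 0.882, slope 0.30), and Pea15a, a death-effector adaptor (r = 0.879, slope 0.30). Within either cluster the r of these 10 genes was at least 0.80.

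Ccnl2, Pdk2 and Irf4 had the most negative r. Ccnl2, a cyclin tied to the splicing machinery, had r = -0.853 (rho = -0.895) but fell by little per doubling of Lep (slope -0.17 ± 0.0047, adjusted p = 4.3e-134). Pdk2, a kinase that shuts pyruvate dehydrogenase, had r = -0.852 and a slope of -0.36 ± 0.0099 (adjusted p = 3.45e-136). Irf4 had a much steeper fall, with 5.42 CPM at the lowest, 18.3 at the median and 2447 at the highest, r = -0.848 (rho = -0.827, -0.841 without the 2 farthest libraries) and a slope of -0.93 ± 0.022 (adjusted p = 1.84e-154). Acsm3, a medium-chain acyl-CoA synthetase, was similarly steep (r = -0.837, slope -1.02).

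The remaining genes of the 10 most negative r were Adck2, a kinase-like protein of mitochondria (-0.838), Safb2, a scaffold attachment factor (-0.837), Dpf2, a subunit of chromatin remodelling complexes (-0.837), Ccnl1, a second splicing cyclin (-0.833), Clk4, a kinase of splicing factors (-0.828), and Dnajc7, a co-chaperone (-0.823). Their slopes ran only from -0.16 to -0.11, so a close pattern went with a small change. All 20 genes had a permutation p of 1e-05 for r, the smallest that 100000 resamples can give (1.4e-05 after adjustment over all genes examined by name). These genes were chosen by r in the same libraries, so the p-values are no independent support. All kept their sign in each of 5 blocks of library number and 5 of mouse number, which are parts of those libraries. For Lpgat1 r ran from 0.915 to 0.943 over the library number blocks and from 0.898 to 0.938 over those of mouse number, and for Irf4 from -0.816 to -0.883 and from -0.8 to -0.921. Several of the 20 share bases with another annotated gene (Lpgat1, Nek6, Npr3, Pea15a, 1700047G03Rik, Pdk2, Adck2, Dpf2, Acsm3, Ccnl1, Clk4 and Dnajc7), and since use of strand by the counting is not stated, their values are less certain than those of Jpt2, Paqr7, Sparc, Adamts5, Rtn4rl1, Ccnl2, Irf4 and Safb2.

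**Figure D2:**
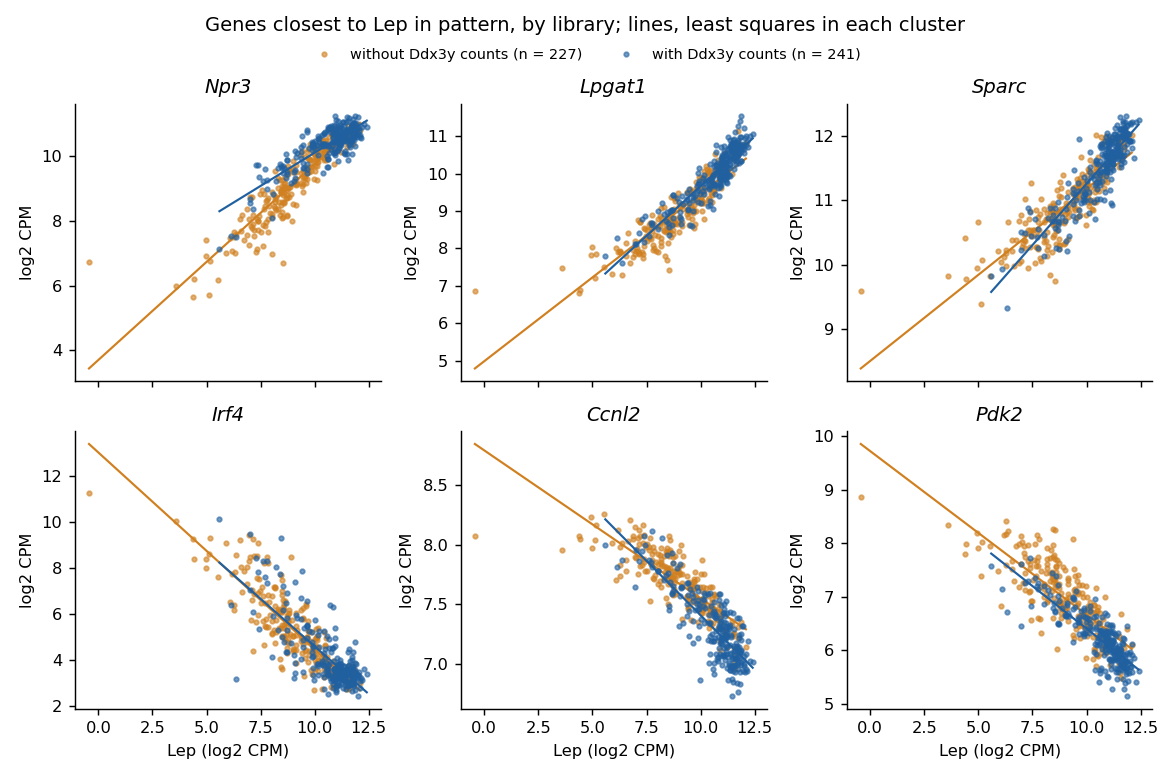
Log2 CPM of 6 genes (vertical axes) against log2 CPM of Lep (horizontal axes), one point per library, coloured by the absence (48.5% of libraries) or presence (51.5%) of Ddx3y counts. Npr3, Lpgat1 and Sparc rise with Lep (r = 0.905, 0.921 and 0.884) and Irf4, Ccnl2 and Pdk2 fall (r = -0.848, -0.853 and -0.852).

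Adgre1, the F4/80 antigen of macrophages, was 10.7 CPM at the lowest, 47.5 at the median and 656.5 at the highest, and rose with Lep (r = 0.591, rho = 0.721, slope 0.26 ± 0.021, adjusted p = 3.12e-29). Its r was 0.401 in libraries without and 0.587 in those with Ddx3y. With Ddx3y and Adgre1 held constant, fewer genes were called: 5494 of 18369 (29.9%) were higher and 6578 (35.8%) lower with Lep at an adjusted p under 0.05. The partial r ran from -0.78 to 0.868 with a median of -0.0106, was above 0.7 for 82 genes and below -0.7 for 18. The closest positive partners changed little in order. Npr3 now led (0.868), followed by Lpgat1 (0.864), 1700047G03Rik (0.862), Paqr7 (0.845), Nek6 (0.836) and Jpt2 (0.833). Cav1, the coat protein of caveolae (0.817), and Tspan17, a tetraspanin (0.808), entered the first 10, and Sparc (0.802) and Pea15a (0.803) stood just behind.

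Irf4 had the most negative partial r and an equally steep slope (-0.93 ± 0.028 per doubling of Lep, adjusted p = 7.77e-120). It was followed by Ccnl1 (-0.761), Safb2 (-0.76), Ccnl2 (-0.739) and Dnajc7 (-0.739). Pcbp2, a poly(rC)-binding protein (-0.716), and Sf1, the factor that binds the branch point of introns (-0.715), entered among the 10 lowest, both in genes that overlap others. The slope of Npr3 was 0.51 ± 0.016 with both held constant (adjusted p = 7.77e-120) and that of Lpgat1 0.43 ± 0.012 (adjusted p = 5.46e-127), close to their values without. All these partial correlations were at the smallest permutation p of 1e-05, which is no independent support, since the genes were chosen by partial r. Without the 2 farthest libraries the partial r was 0.879 for Npr3 and -0.768 for Irf4.

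Among the genes known to change as fat expands, all 12 rose with Lep, with a median r of 0.662 against 0.000563 over all genes. All 12 also rose with Ddx3y and Adgre1 held constant, with a median partial r of 0.601. Beside Npr3 and Cav1 they include Sfrp5, a secreted Wnt inhibitor (0.522, 85.9 and 493.04 CPM at the lowest, median and highest), which had r = 0.812 and rose almost in proportion to Lep (slope 0.97 ± 0.044). Bmp3, a growth factor of the BMP family, had r = 0.743, and Cavin1, which shapes caveolae, had r = 0.708. Mest, an imprinted gene of fat cell growth, was steep as well (r = 0.617, slope 0.73 ± 0.044). Cav1, Cav2 and Cavin1, which build the caveolae of the adipocyte surface, had partial r of 0.817, 0.704 and 0.562. The weakest member was Cavin2 (r = 0.234, slope 0.031 ± 0.0082). The list rose in the same direction without TMM scaling. Its members were chosen with earlier results of these data known, so these counts are a description and no independent support.

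Genes of the extracellular matrix, macrophages and cell division also rose with Lep. Of 18 matrix genes 17 rose and 1 was not called (Mmp14), with a median r of 0.592. With both variables held constant 14 rose and 2 fell (Mmp14 and Mmp2, proteases of collagen), with a median partial r of 0.399. The fall of Mmp2 rests on the edgeR call, since its partial r had a permutation p of 0.347 (adjusted p = 0.401). On the deposited transformed values 16 matrix genes rose and 1 fell. Col4a2, a basement membrane collagen, had r = 0.813 and partial r = 0.709, and Sparc had 0.884 and 0.802. Of 24 macrophage genes 23 rose and Cd163, a scavenger receptor of resident macrophages, was not called (r = 0.0819). The steepest of those named were Mmp12, the macrophage elastase (r = 0.772, slope 1.28 ± 0.057), and Itgax, the CD11c integrin of macrophages in obese fat (r = 0.775, slope 1.04 ± 0.046). These 2 kept partial r of 0.568 and 0.589 with Adgre1 and Ddx3y held constant, whereas of the 23 genes of the list other than Adgre1 15 rose, 1 fell (Cd14, a co-receptor for endotoxin) and 7 were not called, with a median partial r of 0.213. With the macrophage score, which is made from this list, in place of Adgre1 the count turned to 6 higher, 9 lower and 8 not called. Csf1r, the receptor of macrophage colony-stimulating factor, Itgam, the CD11b integrin, and Tyrobp, a signalling adaptor, were then called the other way.

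The summed level of the 24 macrophage genes ran from 463.2 over 1449.9 to 9628 CPM, and the mean z score of the list had r = 0.690 with Lep (0.597 without and 0.613 with Ddx3y counts). A macrophage score therefore shared 47.6% of its variance with log2 Lep, more than Adgre1 alone. All 14 mitosis genes rose as well, with a median r of 0.616 overall and a median partial r of 0.345, among them Aurkb, a kinase of chromosome segregation (r = 0.695), and Tpx2, a spindle assembly factor (r = 0.693).

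**Figure D3:**
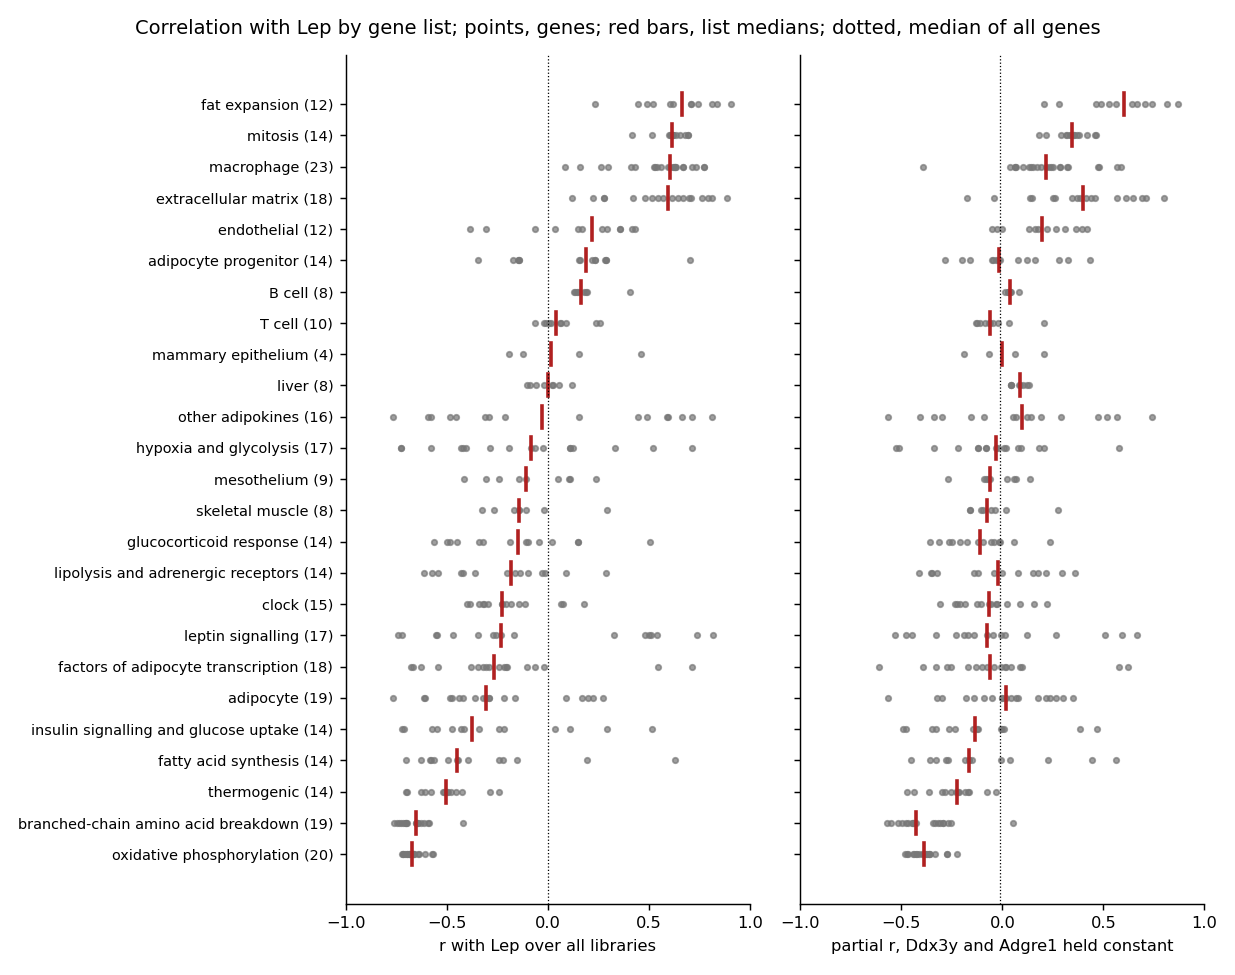
Median Pearson r with log2 Lep over the genes of each of 25 lists, over all libraries and with Ddx3y and Adgre1 held constant, on a horizontal axis of r without units. Fat expansion, mitosis, macrophage and matrix genes lie furthest to the right (median r 0.662, 0.616, 0.601 and 0.592), and oxidative phosphorylation and branched-chain amino acid breakdown furthest to the left (-0.674 and -0.652).

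Most general markers of adipocytes fell as Lep rose. Of 19 adipocyte genes 4 rose, 14 fell and 1 was not called, with a median r of -0.305, beside 37.9% higher and 41.3% lower among all genes tested. With both variables held constant 6 rose, 7 fell and 6 were not called (median partial r 0.017). These counts lie near the shares of all genes tested, of which 29.9% rose and 35.8% fell with both held constant. With the macrophage score in place of Adgre1 the balance turned, with 11 higher, 4 lower and 4 not called. Adipoq, measured at 499.6, 2096 and 3818 CPM at the lowest, median and highest, had r = -0.294 over all libraries, but 0.135 in those without and -0.361 in those with Ddx3y counts, and 0.0696 with both held constant. The lipid droplet genes Cidec and Plin4 had r = 0.271 and 0.199, while Pnpla2, the lipase that starts fat breakdown, had -0.613. The summed level of the list ran from 16401 over 43407 to 66227 CPM. Without TMM scaling 5 rose and 12 fell, and Plin1 and Fabp4 changed the sign of their slope.

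The other adipokines were divided. Of 16 genes 7 rose, 8 fell and 1 (Fgf21, a hormone mainly of liver) was not called, with a median r of -0.029. Over all genes tested 37.9% rose and 41.3% fell. Among the adipokines that rose were Sfrp5, Rarres2, the chemoattractant chemerin (r = 0.712, partial r = 0.568), and Apln, the vasoactive peptide apelin (0.663 and 0.519). Cfd, the complement factor adipsin, fell most strongly, with 35.8, 1552 and 10084 CPM at the lowest, median and highest, r = -0.769 and a slope of -0.68 ± 0.026 (adjusted p = 1.44e-91). Nampt, an enzyme of NAD synthesis (-0.592), Vegfa, the growth factor of blood vessels (-0.579), and Retn, the gene of resistin (-0.487), fell too. Of this list Cfd kept the most negative partial r (-0.566), while Retn was at -0.0907 and Adipoq at 0.0696. Secreted products of fat thus spread over almost the whole range of r.

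Of the 17 genes of leptin signalling 7 rose and 10 fell, beside 37.9% higher and 41.3% lower over all genes tested. Their median r was -0.233. The receptor itself, Lepr, was measured at 2.06, 9.02 and 35.2 CPM at the lowest, median and highest and had r = -0.233, with -0.00438 in libraries without (permutation p = 0.948) and -0.149 in libraries with Ddx3y counts. A pair of trafficking proteins of the receptor stood closest to Lep, Leprotl1 (r = 0.818, partial r = 0.669) and Leprot (0.738 and 0.507), and both had small slopes of 0.10 and 0.11. Of the receptor's signal chain, Jak2 had r = 0.502, the factor Stat3 0.509 and the phosphatase Ptpn11 0.541, while the adaptors Sh2b1 and Irs1 fell (-0.743 and -0.722). Of the inhibitors, Socs3 and the phosphatase Ptpn1 rose (r = 0.327 and 0.481), and with Ddx3y and Adgre1 held constant they had partial r of -0.0483 and -0.00945. With both held constant 5 genes of the list rose, 9 fell and 3 were not called, beside 29.9% higher and 35.8% lower over all genes tested. Without TMM scaling 9 rose and 7 fell, and Stat5b and Pik3ca, called lower with it, were called higher.

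Factors of adipocyte transcription mostly fell. Of 18 genes 16 fell and 2 rose with a median r of -0.267, and with both held constant 2 rose, 8 fell and 8 were not called (median partial r -0.059). The risers were Hif1a, the oxygen-sensitive factor (r = 0.713, partial r = 0.579), and Zfp423, a factor that commits cells to white fat (0.546 and 0.62). Pparg and Cebpa, the core regulators of adipocyte identity, had r = -0.305 and -0.294, and partial r of 0.0449 and 0.0174. The C/EBP factors that bind the palindrome in the promoter above had no r above 0 over all libraries, with Cebpb at -0.379 and Cebpd at -0.0629, and Sp1, which recognises the GC box, had -0.679. These are transcript levels and say nothing of binding. The falls of Fosl2 and Cebpd rest on the edgeR calls, since their r had permutation p of 0.686 and 0.175 (adjusted p = 0.695 and 0.189). Without the library of DO349 2 rose, 13 fell and 3 were not called, and Fosl2 changed sign. Without TMM scaling 4 rose and 9 fell, Rxra and Creb1 were called higher, and Nr1h3, Fosl2 and Ebf1 changed sign.

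Energy metabolism ran against Lep. All 20 genes of oxidative phosphorylation fell (median r -0.674) and all 20 fell with both variables held constant (median partial r -0.387). All 19 genes of branched-chain amino acid breakdown fell (median r -0.652), and 18 of them with both held constant, with Auh not called (partial r = 0.0525). Aldh6a1 and Bckdha, enzymes of that pathway, had r = -0.764 and -0.748. All 14 thermogenic genes fell (median r -0.506), with Ppargc1a, a coactivator of mitochondrial growth, at r = -0.704, and the mean z score of this list had r = -0.498 without and -0.119 with Ddx3y counts. These 3 lists fell in the same direction without TMM scaling, and the mitochondrial DNA share, given above, fell with Lep as well.

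Genes of fat synthesis and insulin action fell in most cases. Of 14 genes of fatty acid synthesis 12 fell and 2 rose (median r -0.448), and the mean z score of the list had r = -0.336 without and -0.0136 with Ddx3y counts. The list included Acaca, which makes malonyl-CoA, with r = -0.701 and slope -0.59 ± 0.026. The risers were Scd2, a desaturase (r = 0.627, partial r = 0.564), and Pnpla3, a lipid droplet protein (r = 0.194, partial r = 0.443). Of 14 genes of insulin signalling and glucose uptake 10 fell, 2 rose and 2 were not called (median r -0.378; without TMM scaling 9 fell and 4 rose). Insr, the insulin receptor, had r = -0.714 and Irs1 -0.722, while Grb14, an inhibitor of that receptor, rose (r = 0.513, slope 0.28 ± 0.025). Of 14 lipolysis genes 11 fell, 1 rose (Mgll, monoglyceride lipase, r = 0.288) and 2 were not called, against 7 lower and 2 higher without TMM scaling. With Ddx3y and Adgre1 held constant the lipolysis list was divided, with 5 higher, 7 lower and 2 not called (median partial r -0.021). Of all genes tested 29.9% were then higher and 35.8% lower. With the macrophage score in place of Adgre1 7 were higher and 6 lower. Among 17 genes of hypoxia and glycolysis 4 rose, 10 fell and 3 were not called, and Hif1a moved opposite to Egln3 and Pdk1, known targets of the factor (r = -0.729 and -0.729).

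Markers of further cell types gave smaller values. Of 12 endothelial genes 8 rose, 2 fell (Kdr and Flt1, receptors of Vegfa, r = -0.388 and -0.305) and 2 were not called. With Ddx3y and Adgre1 held constant 9 rose, 0 fell and 3 were not called. The partial r of Kdr and Flt1 then had permutation p of 0.286 and 0.993 (adjusted p = 0.343 and 0.993). Of 14 progenitor genes 9 rose and 5 fell, with Pdgfrb, the receptor of pericytes and stromal cells, highest (r = 0.705, partial r = 0.434). Pdgfra, of fibroblast-like progenitors, had r = -0.144 and changed the sign of its slope without TMM scaling, as did Dcn. Of 8 B cell genes 7 rose over all libraries (4 without the library of DO349) and none with both held constant. Of 10 T cell genes 2 rose over all libraries (4 without TMM scaling), whereas 1 rose and 8 fell with both held constant. Their median partial r was only -0.063, and on the deposited transformed values 1 rose and 5 fell with both held constant. The summed levels of these lists were low, between 2.23 and 167.3 CPM for B cells and between 4.01 and 111.96 CPM for T cells. Genes of mesothelium gave 2 higher, 4 lower and 3 not called of 9 (4 higher and 5 lower without the library of DO283, 3 higher and 2 lower without TMM scaling). Those of skeletal muscle gave 7 lower and 1 not called of 8, although their r ran from -0.326 to 0.294. On the deposited transformed values 1 muscle gene was higher and 6 were lower. Liver genes gave 3 lower and 5 not called of 8, with none called on the deposited transformed values. None of the 8 pancreas or 8 epididymis genes passed the filter on low counts.

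Whether the slope on Lep differed between libraries with and without Ddx3y was tested gene by gene, with Adgre1 held constant. At an adjusted p under 0.05, 7016 of 18369 genes (38.2%) had a different slope, of which 3483 were more positive and 3533 more negative with Ddx3y. Without a common slope for Adgre1 in both clusters the number was 3507. The r values that follow are Pearson's r within each cluster without Adgre1 held constant, unlike the slope differences. Examples with crossing courses were Gyg, the glycogenin that primes glycogen synthesis (r = -0.467 without and 0.531 with Ddx3y, slope difference 0.22 ± 0.02, adjusted p = 2.44e-23), and Tspan18, a tetraspanin (-0.415 and 0.33, 0.29 ± 0.027, adjusted p = 1.6e-21). Elovl5, an elongase of polyunsaturated fatty acids, fell with Lep without Ddx3y (r = -0.662) and was nearly level with it (0.0803, difference 0.21 ± 0.017, adjusted p = 1.2e-27). Sept9, a septin of the cytoskeleton, and Mtx2, a mitochondrial import protein, had r of 0.247 and -0.219 without and 0.821 and 0.541 with Ddx3y (differences 0.26 and 0.17).

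In the other direction the gene Nnat, an imprinted gene of fat and brain, had r = 0.675 with Lep without Ddx3y and -0.238 with it (difference -0.60 ± 0.064, adjusted p = 2.41e-16). Tshz2, a zinc finger factor, was level without Ddx3y (r = 0.0318) and fell with it (-0.663, difference -0.14 ± 0.015, adjusted p = 6.48e-17). Nucb2, the precursor of nesfatin, Bpgm, a bisphosphoglycerate mutase, and Ceacam10, a cell adhesion protein, had differences of -0.52, -0.41 and -1.85, but 1 library set much of their size. Mouse DO283, with Ddx3y and the smallest total of all, had 1599 CPM of Nucb2, 1240 of Bpgm and 17070.4 of Ceacam10, where the next highest libraries had 116.3, 55.3 and 610.3 CPM. It also had 210517 CPM of Svs5, a secretory protein of the seminal vesicle, against 6126 CPM in the next library. Its Lep was 81.3 CPM, the 18th lowest value. Without this library, an alternative chosen after seeing the data, the differences were -0.097 (adjusted p = 0.000285) for Nucb2, -0.038 (adjusted p = 0.252) for Bpgm and -1.08 (adjusted p = 1.90e-06) for Ceacam10.

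**Figure D4:**
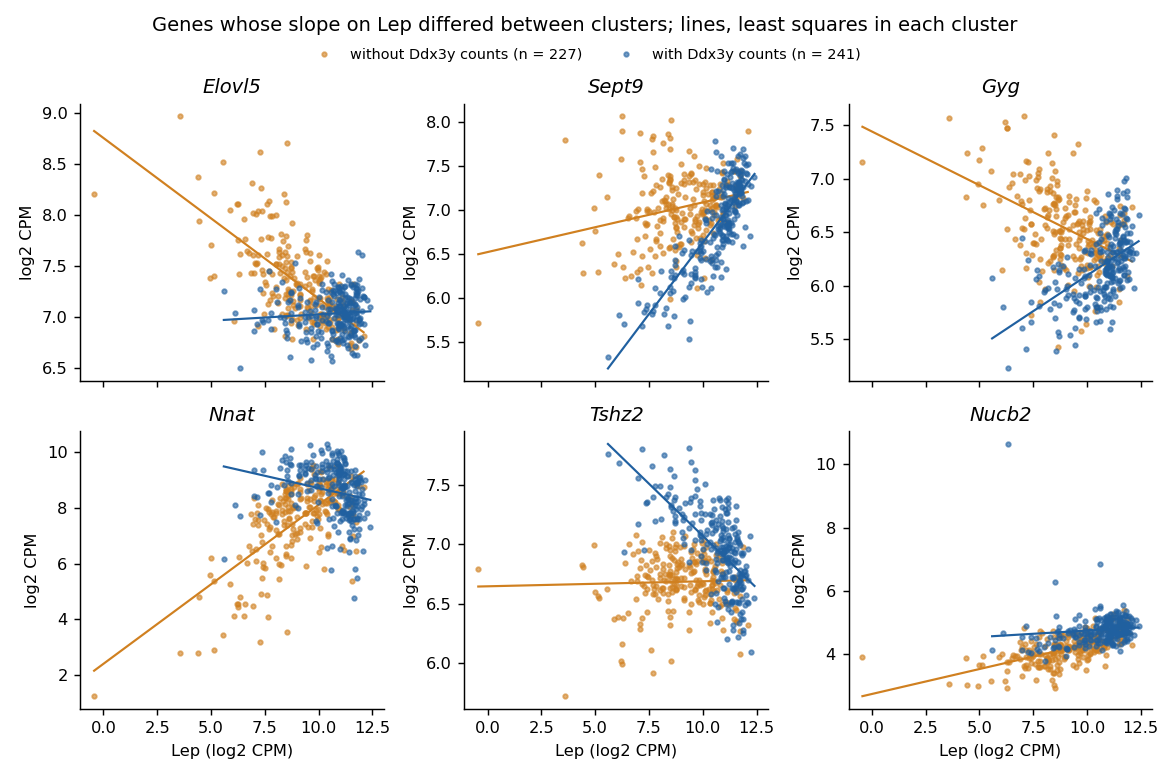
Log2 CPM of 6 genes (vertical axes) against log2 CPM of Lep (horizontal axes), one point per library, coloured by the absence (48.5% of libraries) or presence (51.5%) of Ddx3y counts, with a least-squares line for each cluster. Gyg falls with Lep without Ddx3y (r = -0.467) and rises with it (r = 0.531), Nnat does the reverse (r = 0.675 and -0.238), and 1 library stands far above the rest for Nucb2.

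The genes next to Lep on chromosome 6 did not move as a block with it. Within 1 Mb of its start 36 genes were in the files and 31 were tested, of which 10 rose and 14 fell over all libraries, and 9 rose and 9 fell with both variables held constant. Among all genes tested 37.9% rose and 41.3% fell, and with both held constant 29.9% rose and 35.8% fell. The median r of the neighbours was -0.0060 and their median partial r 0.013, near the medians over all genes. The closest in pattern was Calu, a calcium-binding protein of the endoplasmic reticulum that begins 287.8 kb from the start of Lep (r = 0.814, partial r = 0.685). Rbm28, a nucleolar RNA-binding protein and among the nearest at 63.4 kb, had r = 0.778 and partial r = 0.655. Hilpda, which coats lipid droplets, had 0.521 and 0.206. Irf5, a factor of inflammatory macrophages, had 0.651 and 0.291, and Nrf1, a regulator of mitochondrial genes, had -0.38 and -0.422, where the slope of Nrf1 over all libraries changed its sign without TMM scaling. Genes with r near 0, such as Prrt4 (0.0141), lay between those that moved.

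**Figure D5:**
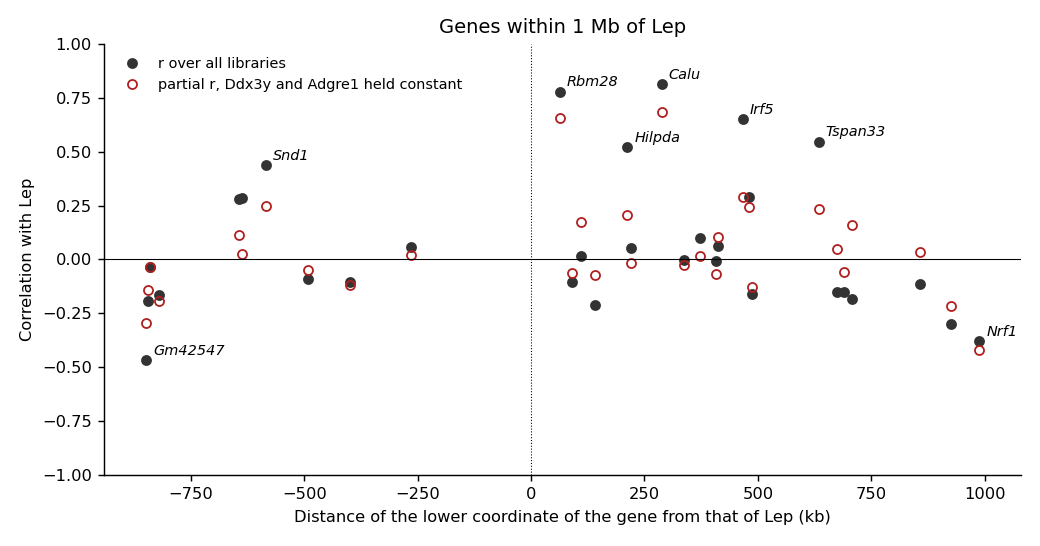
Pearson r with log2 Lep (vertical axis) of the 31 tested genes within 1 Mb against the distance of their lower coordinate from the start of Lep in kb (horizontal axis), over all libraries and with Ddx3y and Adgre1 held constant. Calu and Rbm28 stand highest (r = 0.814 and 0.778), and values above and below 0 occur on both sides of Lep.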

How the data were processed

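The authors aligned the reads of both ends singly to a transcriptome joining the founder strains and estimated abundance by expectation maximization (EMASE, run by GBRS). Their versions, and whether counting used strand, were not given in the sources read, and the submitters' processing notes name GRCm38. The values the authors deposited are expected counts per gene (66.8% whole within 1e-06), and a second deposited table holds log2-scale values of the DESeq2 variance stabilizing transformation. No sample column was left unused. All 23180 identifiers were found in GENCODE M21, 99.2% at the same position.

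Genes with at least 10 counts in at least 50% of libraries were kept (18380). Rounded counts were fitted in edgeR 4.0.16 (R 4.3.3; TMM, glmQLFit and glmQLFTest, two-sided, Benjamini-Hochberg over all genes tested) on log2 CPM of Lep (prior count 2), alone, with an indicator of Ddx3y counts and log2 CPM of Adgre1, and with the product of Lep and indicator. Lep, and in the later models Adgre1 and Y chromosome genes, were left out of the tested genes. Correlations used log2 CPM, with two-sided permutation tests of 100000 resamples (numpy 2.4.6, scipy 1.17.1). Partial correlations used residuals on the indicator and Adgre1, and a list score is the mean z score of its genes. Alternatives were limma 3.58.1, DESeq2 1.42.0 size factors, the deposited transformed values, no TMM, no filter, rank-transformed Lep, other covariates, and libraries left out. The fits were tested on simulated data.

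Named genes were Lep, Ddx3y and Adgre1, the 10 highest and 10 lowest by r and by partial r (mean of at least 10 CPM), the 5 lowest p for a slope difference in each direction, all members of 4 lists (leptin signalling, factors of adipocyte transcription, other adipokines, fat expansion), the 2 highest and 2 lowest of each other list, and genes within 1 Mb of Lep. DO283 and DO349 with their genes were chosen after their values were seen. The members and lists were chosen with earlier results of these data known. Genotypes, body traits and other tissues were not analysed here, and some named genes are not reported here.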

Additional observations from a re-analysis of the deposited data

Results flagged for a closer look

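The difference in the slope on Lep between libraries with and without Ddx3y counts was itself tested (edgeR, Adgre1 held constant, adjusted over 18369 genes). At an adjusted p under 0.05 it was called for 7016 genes (38.2%), so a call alone sets no gene apart. The 10 genes given here were chosen from these by the lowest p in each direction. The slope was more positive with Ddx3y for Tspan18 (0.29), Sept9 (0.26), Gyg (0.22), Elovl5 (0.21) and Mtx2 (0.17), and these differences were 0.19, 0.15, 0.14, 0.18 and 0.11 when Adgre1 had its own slope in each cluster. It was more negative with Ddx3y for Nnat (-0.60), Tshz2 (-0.14), Nucb2 (-0.52), Bpgm (-0.41) and Ceacam10 (-1.85). The last 3 of these values moved most without the library of mouse DO283. Leaving it out took Nucb2 to -0.097 (adjusted p = 0.000285), Bpgm to -0.038 (adjusted p = 0.252) and Ceacam10 to -1.08 (adjusted p = 1.90e-06), and limma gave -0.20 for Ceacam10 (adjusted p = 0.363). The presence of Ddx3y counts was read from the data. The sizes of the clusters equal the numbers of females and males that the study gives for its adipose samples. The clusters may differ in anything that goes with the presence of Ddx3y counts.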

How the results depend on the processing

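Of the counts of called genes and other summary values recomputed under alternatives, 61 stayed the same, which for a count means within 1.5 times, and 2 moved. Genes called lower with Lep over all libraries were 4266 without TMM scaling instead of 7588, and genes whose slope differed were 3507 with a slope of Adgre1 for each cluster instead of 7016. Genes called higher over all libraries were 10424 without TMM scaling instead of 6970, and with Ddx3y and Adgre1 held constant 6145 were higher and 5275 lower without it instead of 5494 and 6578 (53.8% of calls higher instead of 45.5%). Of the recomputed values for single named genes, 96.1% kept direction and side of the threshold, 1.65% passed it newly, 1.66% no longer passed it and 0.568% (41 values) reversed.

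Without TMM scaling the slopes over all libraries turned positive for Stat5b (0.017), Pik3ca (0.025), Rxra (0.023), Nr1h3 (0.011), Fosl2 (0.017), Creb1 (0.024), Ebf1 (0.0068), Pdgfra (0.010), Dcn (0.0025), Smo (0.011), Impdh1 (0.00093), Ahcyl2 (0.0032), Zfp800 (0.025), Nrf1 (0.013) and Gm43029 (0.0032). Nucb2, Bpgm and Ceacam10, high in DO283, reversed in several settings. Over all libraries, Nucb2 was 0.18 without it, 0.18 without the shallowest libraries, 0.17 in limma and 0.16 on the deposited transformed values. Bpgm was 0.029, 0.032, 0.031 and 0.022 in the same order, and 0.025, 0.030, 0.031 and 0.018 with Ddx3y and Adgre1 held constant. Ceacam10 was 0.23 in limma and 0.068 on transformed values, and with both held constant 0.16, 0.18 and 0.012 in the first 3 settings and 0.051 with the adipocyte score added. Elf5 was 0.038 without DO283 and 0.068 without the shallowest libraries, Ahsg 0.16 in limma and 0.064 on transformed values, and Fosl2 0.0048 without DO349. With a macrophage score in place of Adgre1, Stat3 (-0.0080), Metrnl (-0.019) and Irf5 (-0.0040) reversed. The cause was not tested. The lowest library held 70 counts of Lep, so depth did not limit its measurement, while genes near the filter were measured with few counts.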
